A study of Homo sapiens with 9 samples.

Results

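The antiviral effector genes that interferon switches on were followed in TC-32, an established human cell line of Ewing sarcoma driven by the fusion oncogene EWSR1::FLI1. They are 50 genes, chosen by symbol for their known role and taken in groups by effector type from the 58381 genes of the deposited tables. All 50 symbols were found, each in 1 row, and all 50 are annotated as protein coding. Of these, 49 passed the filter on low counts, as did 17235 genes in all. RTP4 did not pass, with 0 counts in the RFP and ETS1-Low libraries and 1, 4 and 2 counts in the ETS1-High libraries.

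RNA was sequenced from 9 libraries, 3 for each of 3 groups. The RFP group carried the pLOC lentiviral vector with a red fluorescent protein, and the ETS1-Low and ETS1-High groups carried pLOC with a human cDNA of the transcription factor ETS1, at a lower and a higher level of expression. The study asked what ETS1 regulates while EWSR1::FLI1 is present, and the higher level was set to match that of cells depleted of the fusion. All groups are thus TC-32 cells with a lentiviral vector, selected with puromycin and sorted as single cells, as far as the protocol in the labels describes them together. The number of clones behind a group is not stated, so the ETS1 level and the identity of a clone cannot be told apart in any comparison, that between the ETS1 groups included. Nothing says that the 3 libraries of a group came from separate cultures, so p-values measure only the spread between these libraries.

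Cells that detect viral nucleic acid make interferons, which act on surface receptors and, through the JAK kinases and the STAT proteins, on a large set of genes. A transcription factor complex that contains IRF9 binds a promoter element, the interferon-stimulated response element, in many of them. Their products block viruses at entry, at replication, in translation and at release from the cell. Tumour cells may also express such genes without added interferon.

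The promoters of these genes were read first, because that element is what the set is known for. Of the 50 members, 43 had an entry in the RefSeq promoter table on GRCh38.p14, and OAS2, OASL, IFIT2, IFITM2, TRIM22, MX2 and USP18 had none. In the 250 bases before each start site, the core of the element (GAAA, any 2 bases, GAAA), searched on both strands, stood in 29 of the 43 members (67.4%). The same letters stood in 3.71% of the 27305 gene symbols in the table. The letters TTCNNNGAA of the gamma-activated sequence, another interferon element, stood in 10 of the 43 members (23.3%) and in 8.09% of all symbols. Of the letters that ETS factors can bind, only CCGGAAGT was searched, on both strands. It was found in 0 of the 43 members and in 4.13% of all symbols, within this window only. Other ETS letters were not counted, so this does not show that the promoters lack ETS sites. These motifs may share letters with one another, and a match is a description of the sequence. The share of genes called higher was close to that of all members on both sides of this division. In ETS1-High relative to RFP, 25 of the 28 tested members with the core letters were called higher, with a median log2 fold change of 2.05, and 13 of the 14 without them, with a median of 2.15.

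Shown here are the 6 promoters with core letters whose genes had the largest fold changes in ETS1-High relative to RFP. Each is the stretch of 250 bases before the RefSeq start site on GRCh38.p14, read 5′ to 3′ along the gene, with the matching letters in capitals on whichever strand they lie.
GBP1, chr1:89065209-89065458, minus strand: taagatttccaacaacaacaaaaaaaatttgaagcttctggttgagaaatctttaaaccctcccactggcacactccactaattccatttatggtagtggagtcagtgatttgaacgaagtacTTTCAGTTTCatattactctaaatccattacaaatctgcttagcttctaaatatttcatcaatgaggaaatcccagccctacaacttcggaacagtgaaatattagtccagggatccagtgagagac
EPSTI1, chr13:42992242-42992491, minus strand: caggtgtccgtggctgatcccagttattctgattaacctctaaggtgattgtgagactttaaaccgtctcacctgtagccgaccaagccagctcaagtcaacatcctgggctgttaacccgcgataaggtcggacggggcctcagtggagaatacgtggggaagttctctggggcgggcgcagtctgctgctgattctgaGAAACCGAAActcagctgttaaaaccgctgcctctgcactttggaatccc
BST2, chr19:17405631-17405880, minus strand: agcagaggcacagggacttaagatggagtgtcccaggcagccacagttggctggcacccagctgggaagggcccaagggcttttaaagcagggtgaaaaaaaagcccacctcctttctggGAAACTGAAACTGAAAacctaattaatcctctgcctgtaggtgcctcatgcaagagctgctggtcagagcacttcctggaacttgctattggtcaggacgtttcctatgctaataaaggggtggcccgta
IFI44, chr1:78649539-78649788, plus strand: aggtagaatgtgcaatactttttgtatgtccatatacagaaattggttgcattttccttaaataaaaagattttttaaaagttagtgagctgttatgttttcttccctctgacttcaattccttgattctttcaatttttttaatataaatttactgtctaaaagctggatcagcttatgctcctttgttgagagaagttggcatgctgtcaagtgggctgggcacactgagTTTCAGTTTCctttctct
OAS3, chr12:112938224-112938473, plus strand: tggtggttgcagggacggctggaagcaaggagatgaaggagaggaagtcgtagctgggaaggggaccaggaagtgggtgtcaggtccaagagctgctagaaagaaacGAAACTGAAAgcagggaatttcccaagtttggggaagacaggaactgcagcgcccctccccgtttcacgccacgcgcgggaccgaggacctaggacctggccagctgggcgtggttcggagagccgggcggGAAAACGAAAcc
IFI44L, chr1:78620198-78620447, plus strand: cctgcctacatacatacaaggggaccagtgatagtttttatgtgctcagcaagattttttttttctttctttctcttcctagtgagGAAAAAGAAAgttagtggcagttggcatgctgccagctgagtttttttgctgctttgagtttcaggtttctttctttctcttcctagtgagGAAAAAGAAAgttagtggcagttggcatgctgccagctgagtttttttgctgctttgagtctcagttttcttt
In BST2 a pair of matches overlapped in a single run, GAAACTGAAACTGAAA, whose last base lies 115 bases before the first transcribed base. The OAS3 matches were GAAACTGAAA and GAAAACGAAA. In GBP1 and in IFI44 the match read TTTCAGTTTC, the core on the other strand. IFI44L held GAAAAAGAAA at 2 places.

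Depth was similar in all libraries, with totals of 39484704 to 46654734 expected counts. ETS1 was examined as the check on the labels, with RFP libraries at 1.81, 2.03 and 2.15 CPM (counts scaled to a common library total, with TMM normalisation), ETS1-Low ones at 10.6, 10.8 and 10.2 CPM and ETS1-High ones at 19.4, 18.2 and 19.7 CPM, so the groups stood in the order their names give. All 8 Ewing sarcoma markers (CD99, NKX2-2, NR0B1, STEAP1, PRKCB, CCND1, LIPI and KDSR) were present in every library, with a summed level of 1056 to 1077 FPKM (fragments scaled to transcript length and library total) in RFP, 1513 to 1539 in ETS1-Low and 1534 to 1549 in ETS1-High. The 6 leukocyte markers used (PTPRC, CD3E, CD14, LYZ, TYROBP and FCER1G) summed to 0.780 to 1.30 FPKM in RFP, 0.240 to 0.560 in ETS1-Low and 0.260 to 0.99 in ETS1-High, with CD3E at 0 counts in all 9 libraries. In bulk RNA, a higher level in all cells and expression in more of the cells cannot be told apart.

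Most of the antiviral genes were higher in both ETS1 groups than in RFP. In ETS1-High relative to RFP, 44 of the 49 tested members were called higher (89.8%; 37.0% of all tested genes were called higher) and 5 were called lower (10.2%; 37.2% of all tested genes). Calls rest on edgeR's quasi-likelihood test at a Benjamini-Hochberg adjusted p below 0.05 over every tested gene, and either-direction calls took in 74.2% of all tested genes for ETS1-High, 74.1% for ETS1-Low, both over RFP, and 59.2% when the ETS1 groups were compared. In ETS1-Low relative to RFP, 41 were called higher (37.9% of all tested genes), 4 lower (36.2% of all tested genes) and 4 were not called. Changes of at least 2-fold upward were called for 35 members in ETS1-High (9.64% of all tested genes) and 29 in ETS1-Low (8.47% of all tested genes). Falls of that size were called for 0 members in ETS1-High (11.4% of all tested genes) and 3 in ETS1-Low (12.2% of all tested genes). The median log2 fold change of the members was 1.85 in ETS1-High and 1.32 in ETS1-Low, where the medians over all tested genes were -0.01 and 0.01. Both comparisons use the same RFP libraries, so their values are given side by side and are not independent. The libraries of ETS1-High and RFP did not overlap in any of the 49 members, with 44 higher and 5 lower (37.5% and 38.0% of all tested genes), and in ETS1-Low 42 lay wholly above RFP and 5 wholly below (38.8% and 37.2% of all tested genes). TRIM14, HERC5, RSAD2 and XAF1 passed the filter on low counts only through ETS1-High, where they were called higher by at least 2-fold. Their calls and lack of overlap in comparisons with ETS1-High thus lean on the filter. Requiring at least 10 counts in every library, which leaves them out, gave 35 members higher and 5 lower in ETS1-High relative to RFP. The share of all genes called there was not computed.

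**Figure D1:**
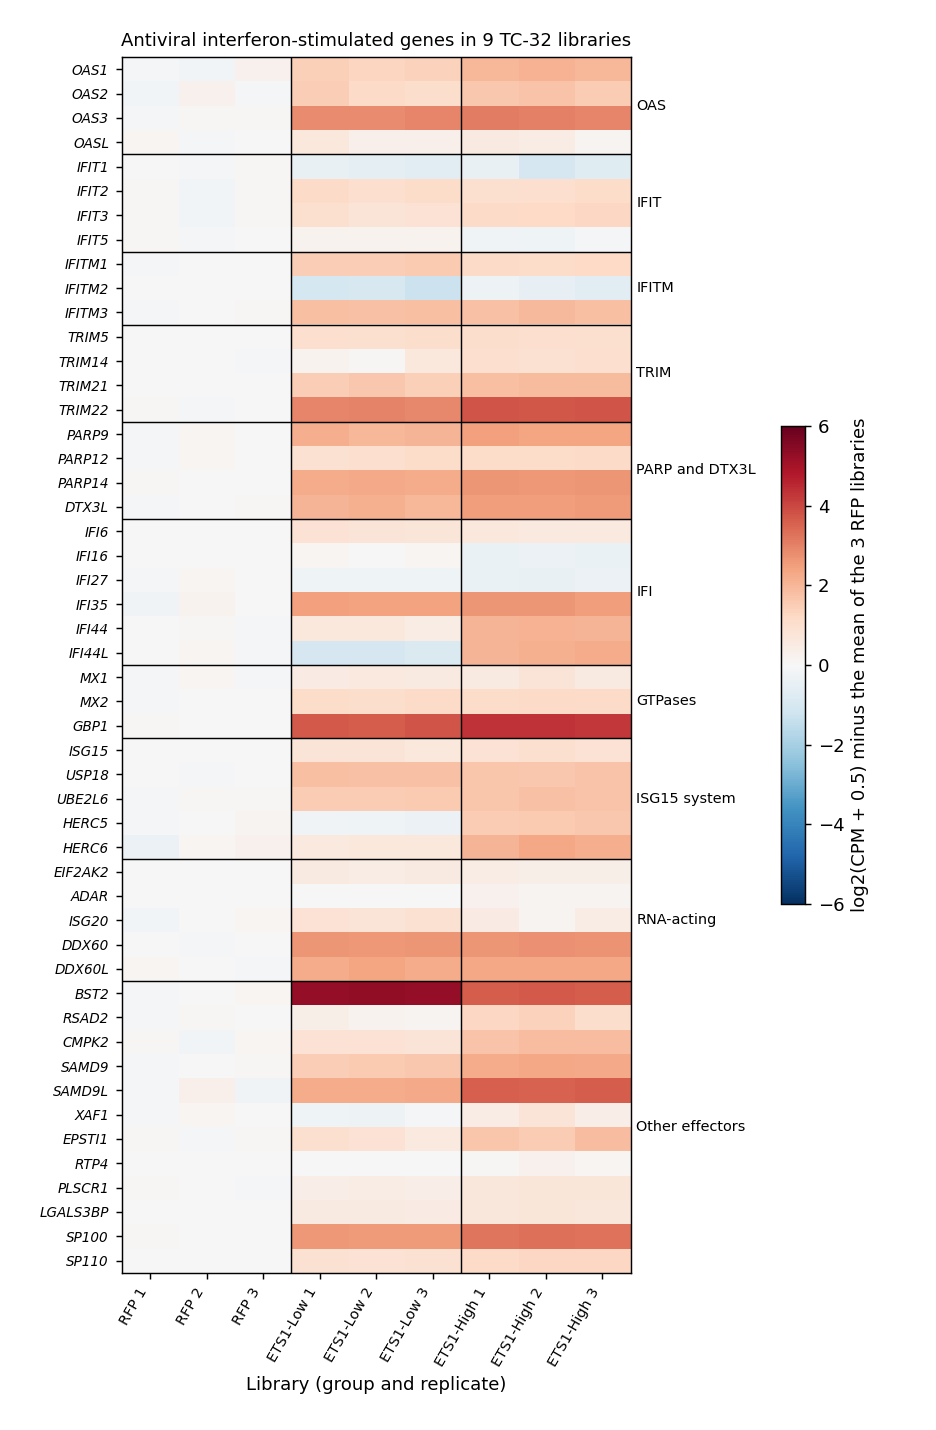
Level of each of the 50 antiviral genes (rows, in effector groups) in the 9 libraries (columns), as log2(CPM + 0.5) minus the mean of the 3 RFP libraries, red above and blue below RFP. The rows of GBP1, BST2, TRIM22, SP100 and SAMD9L are red in the 6 ETS1 libraries, and those of IFIT1 and IFITM2 are blue there.

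**Figure D2:**
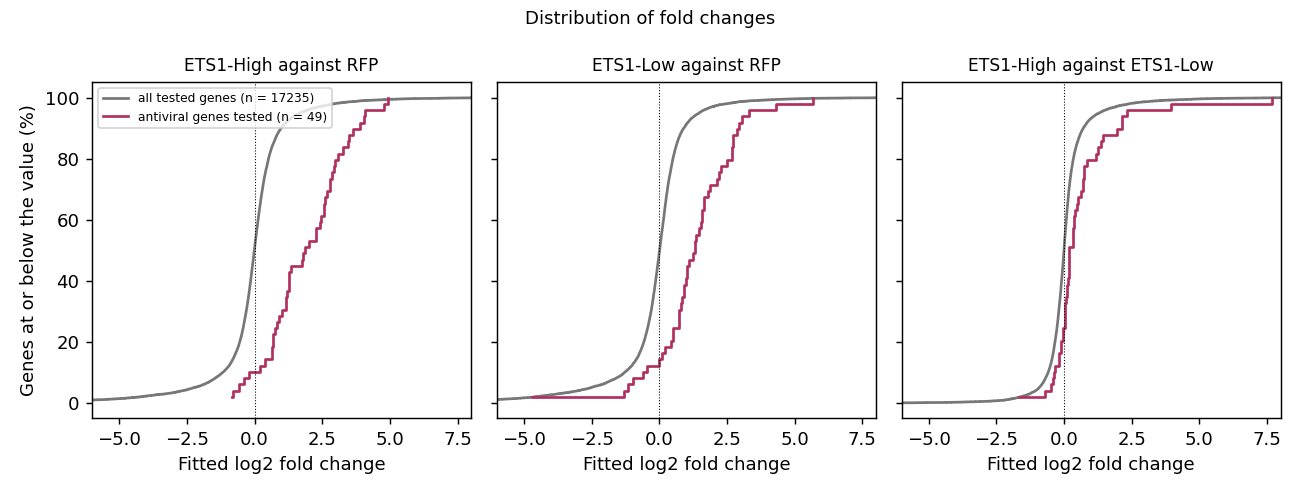
Cumulative share of genes (vertical axis, percent) at or below a fitted log2 fold change (horizontal axis) in each comparison, for the 49 tested antiviral genes and all 17235 tested genes. Relative to RFP, most of the antiviral curve lies to the right of that of all genes, with medians of 1.85 and 1.32. The lowest member in ETS1-Low, IFI44L, lies at -4.71. Between the ETS1 groups the curves lie near each other, with a median of 0.19 for the antiviral genes.

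The ETS1 groups were then compared with each other. In ETS1-High against ETS1-Low, 30 members were called higher (61.2%; 29.9% of all tested genes), 7 lower (14.3%; 29.3% of all tested genes) and 12 were not called. A 2-fold rise was called for 10 (6.05% of all tested genes) and a 2-fold fall for 1, BST2 (3.69% of all tested genes). Libraries of both groups did not overlap for 30 members higher and 9 lower (32.1% and 31.1% of all tested genes). Their median log2 fold change was 0.19, against 0.00 over all tested genes. In steps from RFP to ETS1-Low and on to ETS1-High, 24 members were called higher in both (9.48% of all tested genes) and 0 lower in both (6.88% of all tested genes). Another 10 were higher in the first step and not called in the second (11.8% of all tested genes), 7 rose and then fell (16.6% of all tested genes) and 3 fell and then rose (15.3% of all tested genes). The 7 that rose and then fell were IFIT5, IFITM1, IFI6, IFI16, EIF2AK2, ISG20 and BST2, of which the first step of IFI16 and the second of EIF2AK2 turned on the FPKM scale. The fall of IFI6 from ETS1-Low to ETS1-High was lost without ETS1-Low replicate 1 (-0.16, edgeR adjusted p = 0.0769) and in DESeq2 (adjusted p = 0.0949), and that of ISG20 was lost without ETS1-High replicate 2 (-0.54, edgeR adjusted p = 0.0604) and in DESeq2 (adjusted p = 0.0509). The 3 that fell and then rose were IFITM2, IFI44L and HERC5. The steps share the ETS1-Low libraries, so a high or low value there moves both. IFIT5, IFI16, IFI44L and HERC5 were called in opposite directions relative to RFP in the ETS1 groups and differed between these groups, as did 6.41% of all tested genes.

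Oligoadenylate synthetases sense double-stranded RNA and make short oligoadenylate chains that switch on the nuclease RNase L, and OASL is the family member without that activity. All 4 were called higher in both ETS1 groups. OAS1, OAS3 and OAS2 lie next to each other on chromosome 12, and OAS3 (chromosome 12, 112938051 to 112976460, plus strand, GRCh38) was the most abundant of them per length. OAS3 had 8.58, 9.86 and 9.79 CPM with RFP, 70.1, 71.1 and 73.8 with ETS1-Low and 81.7, 80.1 and 75.6 with ETS1-High. The ETS1 libraries were all far above RFP, and ETS1-High lay above ETS1-Low without overlap. The log2 fold changes of OAS3 were 3.07 (SE 0.05, edgeR adjusted p = 4.99e-46) in ETS1-High and 2.93 (SE 0.05, edgeR adjusted p = 7.09e-45) in ETS1-Low relative to RFP. Between the ETS1 groups OAS3 differed by 0.14 (edgeR adjusted p = 8.02e-04), and this call was lost on the FPKM scale, at 0.13, limma adjusted p = 0.131.

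OAS1 had 1.68, 1.60 and 2.23 CPM with RFP, 5.77, 5.25 and 5.57 with ETS1-Low and 8.73, 9.28 and 8.71 with ETS1-High. It rose by 1.58 in ETS1-Low and by 2.27 in ETS1-High on the log2 scale, and its step between the ETS1 groups was 0.69 (edgeR adjusted p = 7.91e-09). OAS2 was scarcer, at 0.0831, 0.277 and 0.102 CPM with RFP, 1.32, 0.934 and 0.855 with ETS1-Low and 1.47, 1.65 and 1.34 with ETS1-High. Its log2 fold changes relative to RFP were 3.26 with ETS1-High and 2.73 with ETS1-Low. The step between the ETS1 groups was 0.53 (edgeR adjusted p = 0.0463), and it was lost without ETS1-Low replicate 2, ETS1-Low replicate 3, ETS1-High replicate 1 or ETS1-High replicate 2 (0.41 to 0.54, edgeR adjusted p = 0.0793 to 0.184), with no filter on low counts (0.53, edgeR adjusted p = 0.0515) and in DESeq2 (adjusted p = 0.172). OASL, which lies apart from the other OAS genes on chromosome 12, stayed below 1.1 CPM in every library, with 0.507 ± 0.0683 CPM with RFP, 0.841 ± 0.188 with ETS1-Low and 0.811 ± 0.164 with ETS1-High (SD, n = 3). OASL was called higher by 0.67 in ETS1-High (edgeR adjusted p = 0.0227), a call that was lost without RFP replicate 2, RFP replicate 3, ETS1-High replicate 1 or ETS1-High replicate 2 (0.56 to 0.65, edgeR adjusted p = 0.0561 to 0.0904) and in DESeq2 (adjusted p = 0.103). Its call in ETS1-Low, 0.72 with an edgeR adjusted p of 0.0148, was lost without RFP replicate 2 or ETS1-Low replicate 1 (0.53 to 0.63, edgeR adjusted p = 0.0529 to 0.112) and in DESeq2 (adjusted p = 0.0810).

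IFIT proteins bind viral RNA and block its translation, and the 4 IFIT genes lie in a row on chromosome 10. They did not move together. IFIT2 and IFIT3, which form complexes with IFIT1, were called higher in both ETS1 groups. IFIT1, which recognises RNA caps that lack ribose methylation, was called lower in both. IFIT1 (chromosome 10, 89392546 to 89406487, plus strand) had 4.30, 4.16 and 4.65 CPM with RFP, 3.09, 2.78 and 2.69 with ETS1-Low and 3.07, 1.91 and 2.48 with ETS1-High. Each ETS1 library was below each RFP library, and the ETS1 groups overlapped with each other. The log2 fold changes of IFIT1 were -0.82 (SE 0.13, edgeR adjusted p = 1.47e-07) in ETS1-High and -0.62 (SE 0.13, edgeR adjusted p = 2.25e-05) in ETS1-Low. The genes within 10 Mb of IFIT1 had a median of -0.49 with ETS1-High and -0.06 with ETS1-Low, and the part of this in the change of IFIT1 was not tested.

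IFIT3 (chromosome 10, 89327307 to 89377473, plus strand), whose annotated end lies 15.1 kb before IFIT1, had 4.55, 3.78 and 4.59 CPM with RFP, 8.75, 7.65 and 8.23 with ETS1-Low and 10.2, 10.5 and 10.8 with ETS1-High. It rose in each step, by 0.93 from RFP to ETS1-Low (edgeR adjusted p = 1.74e-13) and by 0.36 from there to ETS1-High (edgeR adjusted p = 1.18e-04). IFIT2 had 1.35, 1.11 and 1.39 CPM with RFP, 3.38, 3.02 and 3.27 with ETS1-Low and 3.02, 3.05 and 3.27 with ETS1-High. Both ETS1 groups were above RFP, by 1.27 with ETS1-High and 1.32 with ETS1-Low on the log2 scale, and overlapped with each other. Exons of IFIT2 and IFIT3 overlap LIPA on the other strand. LIPA had log2 fold changes of -0.32 with ETS1-High and 0.01 with ETS1-Low, and whether the counting used the strand is not given in the sources used here. IFIT5, which binds uncapped RNA, had 23.4, 20.6 and 22.3 CPM with RFP, 25.4, 25.5 and 25.8 with ETS1-Low and 19.0, 18.4 and 20.4 with ETS1-High. It was called lower in ETS1-High at a log2 fold change of -0.20 (edgeR adjusted p = 6.97e-04) and higher in ETS1-Low by 0.21 (edgeR adjusted p = 3.33e-04), a rise that was lost on the FPKM scale, at 0.06, limma adjusted p = 0.330. The genes within 10 Mb of IFIT5 had a median of -0.48 in ETS1-High, and IFIT5 minus that median was 0.28.

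IFITM proteins sit in membranes and hinder the fusion of enveloped viruses, IFITM1 mainly at the cell surface and IFITM2 and IFITM3 in endosomes. IFITM1 and IFITM3 were higher in both ETS1 groups and IFITM2 was lower in both, although the 3 genes lie within a short stretch at the end of chromosome 11. IFITM3 (chromosome 11, 319676 to 329475, minus strand) had 41.2, 44.7 and 46.8 CPM with RFP, 157, 153 and 153 with ETS1-Low and 151, 169 and 158 with ETS1-High, a rise of 1.85 and 1.80 on the log2 scale in ETS1-High and ETS1-Low. IFITM1 had 12.4, 13.3 and 13.1 CPM with RFP, 36.9, 37.1 and 39.2 with ETS1-Low and 29.6, 28.6 and 30.1 with ETS1-High. Its highest values were those of ETS1-Low, and ETS1-High was below ETS1-Low at a log2 fold change of -0.36 (edgeR adjusted p = 1.17e-09). IFITM2 (chromosome 11, 303655 to 309397, plus strand) had 4.07, 4.20 and 4.06 CPM with RFP, 1.72, 1.89 and 1.37 with ETS1-Low and 3.22, 2.74 and 2.40 with ETS1-High. RFP was highest, ETS1-High was between and ETS1-Low lowest, without overlap. The log2 fold changes of IFITM2 were -1.30 (SE 0.14, edgeR adjusted p = 5.34e-12) in ETS1-Low and -0.57 (SE 0.13, edgeR adjusted p = 8.93e-05) in ETS1-High. The 3 IFITM genes are close copies of each other, and their expected counts were non-whole in all 9 libraries, so reads were divided between them or with further copies and each level is uncertain.

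TRIM proteins are mostly ubiquitin ligases. TRIM5 binds retroviral capsids, TRIM21 binds antibodies carried in on viruses, TRIM22 restricts viral transcription, and TRIM14 lacks the ligase domain and works at the adaptor MAVS. All 4 were called higher in both ETS1 groups, TRIM22 most. TRIM22 (chromosome 11, 5689610 to 5737089, plus strand) had 4.92, 4.46 and 4.53 CPM with RFP, 38.5, 39.6 and 37.0 with ETS1-Low and 69.6, 67.7 and 69.4 with ETS1-High. The 3 groups were apart from each other, and the steps were 3.05 (SE 0.05, edgeR adjusted p = 4.79e-43) and 0.84 (SE 0.04, edgeR adjusted p = 5.03e-25) on the log2 scale. TRIM21 rose in each step as well, with 2.85, 2.94 and 3.01 CPM with RFP, 9.12, 9.96 and 8.67 with ETS1-Low and 11.4, 12.3 and 12.1 with ETS1-High. TRIM5 had 23.4, 23 and 23.4 CPM with RFP, 46.7, 45.6 and 48.1 with ETS1-Low and 49.4, 47.2 and 45.9 with ETS1-High. It rose in both ETS1 groups, by 1.01 and 1.03 on the log2 scale, and the difference between them was 0.02 (SE 0.04, edgeR adjusted p = 0.669). Expected counts of TRIM5 were non-whole in all 9 libraries, so its level is uncertain. TRIM14 was scarce, at 9, 8 and 7 counts in RFP, 10, 9 and 22 in ETS1-Low and 33, 34 and 37 in ETS1-High. Its rise in ETS1-Low, 0.98 with an edgeR adjusted p of 0.0301, was lost without RFP replicate 2, RFP replicate 3 or ETS1-Low replicate 3 (0.46 to 0.99, edgeR adjusted p = 0.0577 to 0.396) and in DESeq2 (adjusted p = 0.105), while the rise in ETS1-High was 2.25 (edgeR adjusted p = 2.12e-07). TRIM14 overlaps NANS on the other strand, whose group means were 25.8, 22.9 and 31.3 CPM.

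PARP12 and PARP14 attach single ADP-ribose units to proteins, and PARP9 forms a complex with the ubiquitin ligase DTX3L. All 4 genes of this group were higher in both ETS1 groups by more than 2-fold. PARP14 (chromosome 3, 122680839 to 122730840, plus strand) had 14.4, 13.5 and 13.4 CPM with RFP, 65.6, 68.8 and 66.6 with ETS1-Low and 89.5, 86.6 and 89.4 with ETS1-High. The groups did not overlap, with steps of 2.28 (SE 0.04, edgeR adjusted p = 1.02e-42) and 0.40 (SE 0.03, edgeR adjusted p = 9.97e-15). PARP9 and DTX3L start next to each other on opposite strands of chromosome 3, and their annotated exons overlap. PARP9 had 3.10, 3.73 and 3.26 CPM with RFP, 16.9, 14.6 and 15.1 with ETS1-Low and 20.6, 19.3 and 19.2 with ETS1-High. DTX3L had 6.13, 6.57 and 6.82 CPM with RFP, 28.6, 29.7 and 27.7 with ETS1-Low and 39.3, 39.6 and 40.3 with ETS1-High. The pair moved alike, by 2.55 and 2.61 in ETS1-High and by 2.21 and 2.14 in ETS1-Low on the log2 scale. PARP12 had 10.00, 11.9 and 10.7 CPM with RFP, 21.1, 22.2 and 23.7 with ETS1-Low and 24.1, 23.5 and 24.9 with ETS1-High, and its log2 fold changes relative to RFP were 1.15 with ETS1-High and 1.04 with ETS1-Low. The step of PARP12 between the ETS1 groups was 0.11 (edgeR adjusted p = 0.0766), and it passed the threshold without ETS1-Low replicate 3 (0.16, edgeR adjusted p = 0.0297), with DESeq2 size factors (0.13, edgeR adjusted p = 0.0494) and in a fit of the 2 groups alone (0.12, edgeR adjusted p = 0.0467).

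MX1 and MX2 are dynamin-like GTPases that trap viral nucleocapsids, and GBP1 is a guanylate-binding GTPase that responds strongly to interferon gamma. GBP1 (chromosome 1, 89051882 to 89065360, minus strand) had 0.894, 0.789 and 0.799 CPM with RFP, 16.3, 16.2 and 17.5 with ETS1-Low and 26.0, 25.9 and 24.7 with ETS1-High. RFP was near the bottom of the scale and the 3 groups did not overlap. GBP1 rose by 4.94 (SE 0.09, edgeR adjusted p = 9.59e-43) in ETS1-High, the largest rise among the members in that comparison, and by 4.33 (SE 0.10, edgeR adjusted p = 3.75e-39) in ETS1-Low. MX2 had 42.3, 44.7 and 44.4 CPM with RFP, 93.8, 91.2 and 96.5 with ETS1-Low and 95.9, 99.0 and 96.1 with ETS1-High, with log2 fold changes of 1.15 and 1.10 for ETS1-High and ETS1-Low. MX1, which lies 10.6 kb from MX2 on chromosome 21 and is a standard marker of an interferon response, was much scarcer, at 1.04, 1.24 and 1.04 CPM with RFP, 1.75, 1.93 and 1.83 with ETS1-Low and 1.83, 2.20 and 1.86 with ETS1-High. MX1 rose by 0.83 (edgeR adjusted p = 2.93e-05) and 0.73 (edgeR adjusted p = 2.04e-04) in ETS1-High and ETS1-Low. Both calls were lost with FPKM and no filter (0.25, limma adjusted p = 0.111, and 0.19, limma adjusted p = 0.238). On the scale per length, MX1 stood at 0.647 ± 0.198, 0.873 ± 0.137 and 0.960 ± 0.180 FPKM in RFP, ETS1-Low and ETS1-High (SD, n = 3), and MX2 at 28.2 ± 1.51, 51.0 ± 0.914 and 54.4 ± 2.11 FPKM.

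**Figure D3:**
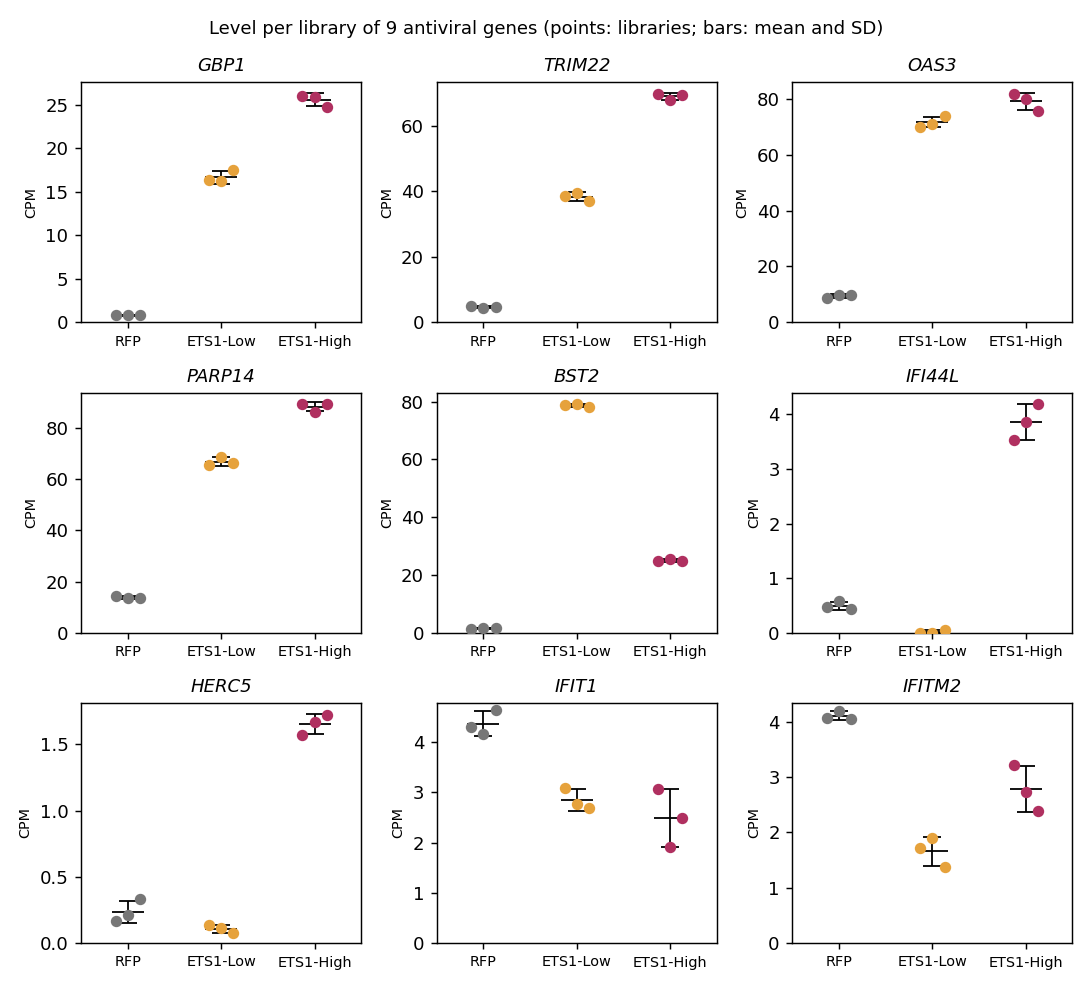
Level in CPM (vertical axes, from 0, linear) of 9 antiviral genes in each library of RFP, ETS1-Low and ETS1-High; points are libraries, bars are the mean and SD of 3. GBP1, TRIM22, OAS3 and PARP14 rise from RFP to ETS1-Low to ETS1-High, BST2 is highest in ETS1-Low, IFI44L and HERC5 are highest in ETS1-High, and IFIT1 and IFITM2 are highest in RFP.

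ISG15 is a ubiquitin-like protein that UBE2L6 and the ligase HERC5 attach to other proteins and USP18 removes, and USP18 also dampens signalling at the interferon receptor. All 5 genes of this group, with HERC6, were higher in ETS1-High, and 4 were higher in ETS1-Low. UBE2L6 had 8.89, 10.1 and 10.00 CPM with RFP, 28.4, 29.0 and 29.2 with ETS1-Low and 31.9, 34.0 and 33.1 with ETS1-High. USP18 had 5.55, 5.08 and 5.53 CPM with RFP, 20.1, 19.2 and 19.6 with ETS1-Low and 17.9, 17.8 and 19.1 with ETS1-High. Both were raised in the ETS1 groups, UBE2L6 by 1.77 and 1.58 and USP18 by 1.76 and 1.86 on the log2 scale in ETS1-High and ETS1-Low. USP18 had non-whole counts in all 9 libraries, so its level is uncertain. ISG15 itself rose less, with 13.1 ± 0.279 CPM with RFP, 21.8 ± 1.35 with ETS1-Low and 24.6 ± 0.872 with ETS1-High (SD, n = 3) and log2 fold changes of 0.91 and 0.74 relative to RFP. Its step between the ETS1 groups, 0.17, was lost without ETS1-Low replicate 3 (0.12, edgeR adjusted p = 0.0724).

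HERC5 and its relative HERC6 lie 14.0 kb apart on chromosome 4. HERC5 (chromosome 4, 88457119 to 88506163, plus strand) had 8, 10 and 16 counts in RFP, 5, 5 and 3 in ETS1-Low and 62, 75 and 77 in ETS1-High, which are 0.166, 0.213 and 0.328 CPM with RFP, 0.132, 0.111 and 0.0732 with ETS1-Low and 1.57, 1.67 and 1.72 with ETS1-High. ETS1-High was above the other groups by 2.79 (RFP, adjusted p 1.06e-12, edgeR) and 3.94 (ETS1-Low, adjusted p 1.10e-14, edgeR) on the log2 scale. ETS1-Low was called lower than RFP, at a log2 fold change of -1.15 (SE 0.45, edgeR adjusted p = 0.0204), a call that was lost without RFP replicate 3 or ETS1-Low replicate 3 (-0.95 to -0.84, edgeR adjusted p = 0.0813 to 0.139) and in DESeq2 (adjusted p = 0.0568). HERC6 had 0.0831, 0.299 and 0.389 CPM with RFP, 0.635, 0.667 and 0.659 with ETS1-Low and 2.59, 3.27 and 2.89 with ETS1-High. It rose in each step, by 1.34 (edgeR adjusted p = 1.61e-04) and 2.15 (edgeR adjusted p = 6.75e-12).

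Among the genes named IFI, the neighbours IFI44L and IFI44 on chromosome 1, 3.7 kb apart, differed in ETS1-Low. IFI44L (chromosome 1, 78619902 to 78646145, plus strand) had 23, 27 and 21 counts in RFP, 0, 0 and 2 in ETS1-Low and 139, 174 and 187 in ETS1-High. It was nearly silent in ETS1-Low and highest in ETS1-High. Over the 3 libraries of a group, its level was 239.8 times higher with ETS1-High than with ETS1-Low (95% interval 66.0 to 1986) and 30.6 times higher in RFP than in ETS1-Low (8.15 to 257), by the exact Clopper-Pearson method, which covers counting error only. In ETS1-High relative to RFP it rose by 2.96 (SE 0.20, edgeR adjusted p = 7.55e-19). IFI44 had 0.187, 0.213 and 0.164 CPM with RFP, 0.555, 0.578 and 0.440 with ETS1-Low and 2.29, 2.40 and 2.35 with ETS1-High. It was higher in each step, by 1.47 (edgeR adjusted p = 5.02e-05) and 2.15 (edgeR adjusted p = 2.77e-12).

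IFI35 had 1.73, 2.5 and 2.09 CPM with RFP, 13.7, 13.5 and 13.5 with ETS1-Low and 15.5, 15.9 and 14.3 with ETS1-High, with rises of 2.86 and 2.69 on the log2 scale in ETS1-High and ETS1-Low. Its call between the ETS1 groups, 0.17, was lost without ETS1-Low replicate 1, ETS1-Low replicate 2, ETS1-Low replicate 3, ETS1-High replicate 1 or ETS1-High replicate 2 (0.14 to 0.18, edgeR adjusted p = 0.0626 to 0.150) and in DESeq2 (adjusted p = 0.102). IFI16, a sensor of DNA and one of the more abundant members, had 188, 184 and 185 CPM with RFP, 204, 190.0 and 199 with ETS1-Low and 140.1, 145 and 143 with ETS1-High. Here ETS1-High was lowest, below RFP at a log2 fold change of -0.38 (edgeR adjusted p = 5.32e-16) and below ETS1-Low at -0.47 (edgeR adjusted p = 6.74e-19). ETS1-Low was called higher than RFP by 0.09 (edgeR adjusted p = 0.00705), which turned negative on the FPKM scale (-0.04, limma adjusted p = 0.278) and was lost without ETS1-Low replicate 1 (0.07, edgeR adjusted p = 0.0662). IFI6, which protects cells from flavivirus replication, was called higher by 0.63 and 0.83 in ETS1-High and ETS1-Low. IFI27 was scarce, at 0.717 ± 0.115 CPM with RFP, 0.518 ± 0.00979 with ETS1-Low and 0.411 ± 0.0350 with ETS1-High (SD, n = 3), and was called lower in ETS1-High only, at a log2 fold change of -0.80 (edgeR adjusted p = 0.0123). That call was lost without RFP replicate 2 (-0.68, edgeR adjusted p = 0.0604) and in DESeq2 (adjusted p = 0.0627). In ETS1-Low relative to RFP the value of IFI27 was -0.47 (edgeR adjusted p = 0.130), and the difference between the ETS1 groups was -0.33 (edgeR adjusted p = 0.373).

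Of the 5 members that act on RNA, DDX60 and DDX60L changed most, and the abundant EIF2AK2 and ADAR changed by less than 2-fold. EIF2AK2, the kinase PKR that stops translation when it meets double-stranded RNA, had 95.6, 95.3 and 97.5 CPM with RFP, 139, 132 and 138 with ETS1-Low and 132, 121 and 125 with ETS1-High. It rose by 0.39 and 0.50 on the log2 scale in ETS1-High and ETS1-Low. The difference between the ETS1 groups, -0.11 (edgeR adjusted p = 0.00211), turned positive on the FPKM scale (0.00475, limma adjusted p = 0.945). ADAR, which edits adenosine to inosine in double-stranded RNA, had 367, 349 and 356 CPM with RFP, 361, 359.6 and 355 with ETS1-Low and 426, 398 and 401 with ETS1-High. It was called higher in ETS1-High by 0.19 (edgeR adjusted p = 1.49e-07), a call lost on the FPKM scale (0.07, limma adjusted p = 0.207). In ETS1-Low its value was 0.01 (SE 0.03, edgeR adjusted p = 0.875), and on the FPKM scale it was lower (-0.14, limma adjusted p = 0.0228).

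DDX60 and DDX60L, helicases in tandem on chromosome 4, rose together. DDX60 (chromosome 4, 168216291 to 168318883, minus strand) had 2.29, 2.09 and 2.31 CPM with RFP, 16.8, 15.8 and 16.5 with ETS1-Low and 16.8, 17.9 and 17.2 with ETS1-High. DDX60L had 2.33, 2.18 and 1.95 CPM with RFP, 11.8, 12.9 and 12.0 with ETS1-Low and 12.6, 12.9 and 12.8 with ETS1-High. In both genes the ETS1 groups lay far above RFP, by 2.95 and 2.87 for DDX60 and 2.57 and 2.51 for DDX60L on the log2 scale. Between the ETS1 groups DDX60 differed by 0.08 (SE 0.06, edgeR adjusted p = 0.281). The genes within 10 Mb of this pair had a median of 0.67 with ETS1-High and 0.69 with ETS1-Low, and DDX60 minus its region was 2.28 and 2.18. ISG20, an exonuclease, had 0.416, 0.533 and 0.615 CPM with RFP, 1.38, 1.25 and 1.39 with ETS1-Low and 0.939, 0.623 and 0.896 with ETS1-High. It was highest in ETS1-Low, with a log2 fold change of 1.35 (edgeR adjusted p = 1.80e-06) relative to RFP. Its rise in ETS1-High, 0.64 with an edgeR adjusted p of 0.0209, was lost without RFP replicate 1, ETS1-High replicate 1 or ETS1-High replicate 3 (0.50 to 0.57, edgeR adjusted p = 0.0765 to 0.106) and in DESeq2 (adjusted p = 0.0901).

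BST2, or tetherin, holds budding virus particles at the cell surface. BST2 (chromosome 19, 17402939 to 17405630, minus strand) had 1.39, 1.51 and 1.68 CPM with RFP, 78.9, 79.2 and 78.2 with ETS1-Low and 24.7, 25.6 and 24.9 with ETS1-High. ETS1-Low was highest and ETS1-High between, and the groups did not overlap. The log2 fold changes of BST2 were 5.68 (SE 0.06, edgeR adjusted p = 9.50e-53) in ETS1-Low, 4.03 (SE 0.07, edgeR adjusted p = 1.48e-43) in ETS1-High and -1.65 (SE 0.04, edgeR adjusted p = 8.42e-37) between them.

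SAMD9L and SAMD9, neighbours on chromosome 7, are cytosolic factors that restrict poxviruses. SAMD9L (chromosome 7, 93130056 to 93148385, minus strand) had 0.291, 0.533 and 0.225 CPM with RFP, 3.44, 3.47 and 3.61 with ETS1-Low and 9.47, 9.39 and 10.0 with ETS1-High. It rose in each step, by 3.32 (edgeR adjusted p = 7.69e-23) and 1.46 (edgeR adjusted p = 2.37e-17), and SAMD9 likewise by 1.66 and 0.75. SP100, a component of nuclear bodies that silence incoming DNA viruses, had 3.72, 3.48 and 3.54 CPM with RFP, 24.2, 23.5 and 23.8 with ETS1-Low and 37.7, 39.7 and 38.8 with ETS1-High. Its groups did not overlap, and it was higher with ETS1-High than with RFP by 3.43 (SE 0.06, edgeR adjusted p = 1.95e-43). SP110 of the same family rose by 1.27 and 0.92 in ETS1-High and ETS1-Low.

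The scarcest members gave their changes from few counts. RSAD2, or viperin, which makes a chain-terminating nucleotide, had 6, 8 and 7 counts in RFP, 12, 11 and 9 in ETS1-Low and 40, 54 and 37 in ETS1-High. It was called higher in ETS1-High, by 2.77 (edgeR adjusted p = 4.18e-10), and its value in ETS1-Low was 0.81 (edgeR adjusted p = 0.0793). CMPK2, the nucleotide kinase whose exons overlap those of RSAD2 on the other strand, rose in each step, by 1.26 and 1.19, from 0.624 ± 0.116 CPM in RFP (SD, n = 3). EPSTI1 had 5, 1 and 5 counts in RFP, 24, 24 and 15 in ETS1-Low and 51, 51 and 70 in ETS1-High, with log2 fold changes of 4.07 and 2.69 for ETS1-High and ETS1-Low. XAF1, a factor that favours apoptosis, had 7, 12 and 9 counts in RFP, 3, 3 and 6 in ETS1-Low and 17, 30 and 18 in ETS1-High. It was called higher in ETS1-High by 1.35 (edgeR adjusted p = 0.00151), and its value in ETS1-Low, -0.98 (edgeR adjusted p = 0.0856), passed the threshold without ETS1-Low replicate 3 (-1.39, edgeR adjusted p = 0.0488). PLSCR1, a scramblase that hinders virus entry, and the secreted glycoprotein LGALS3BP were called higher by smaller amounts, 0.75 and 0.69 in ETS1-High and 0.43 and 0.52 in ETS1-Low.

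Levels of different genes were compared per length, in FPKM. In ETS1-High the most abundant members were IFITM3 at 254 ± 12.2 FPKM and LGALS3BP at 231 ± 4.41 FPKM (SD, n = 3), and LGALS3BP and IFI16 already stood at 151 ± 1.75 and 93.9 ± 0.661 FPKM in RFP. The summed FPKM of the 50 members was 578 to 589 with RFP, 1076 to 1081 with ETS1-Low and 1098 to 1118 with ETS1-High. At the other end, 12 members had mean levels below 1 FPKM in all 3 groups: OAS2, OASL, IFIT2, TRIM14, IFI27, MX1, HERC5, HERC6, RSAD2, XAF1, EPSTI1 and RTP4.

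Since fold changes in these libraries also differ by region of the genome, each member was set beside the genes within 10 Mb of it. The local medians lay between -0.50 and 0.67 for ETS1-High over RFP and between -0.60 and 0.69 for ETS1-Low over RFP. With the local median taken off, the median log2 fold change of the members was 1.78 in ETS1-High and 1.18 in ETS1-Low. Members called higher by at least 2-fold numbered 35 before and 32 after that subtraction in ETS1-High, and 29 and 28 in ETS1-Low. In ETS1-High, TRIM5, IFITM1 and SP110 fell below 2-fold, to 0.72, 0.88 and 0.78 on the log2 scale. In ETS1-Low, TRIM5 and CMPK2 fell below it, to 0.65 and 0.96, and TRIM14 rose above it, to 1.58.

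**Figure D4:**
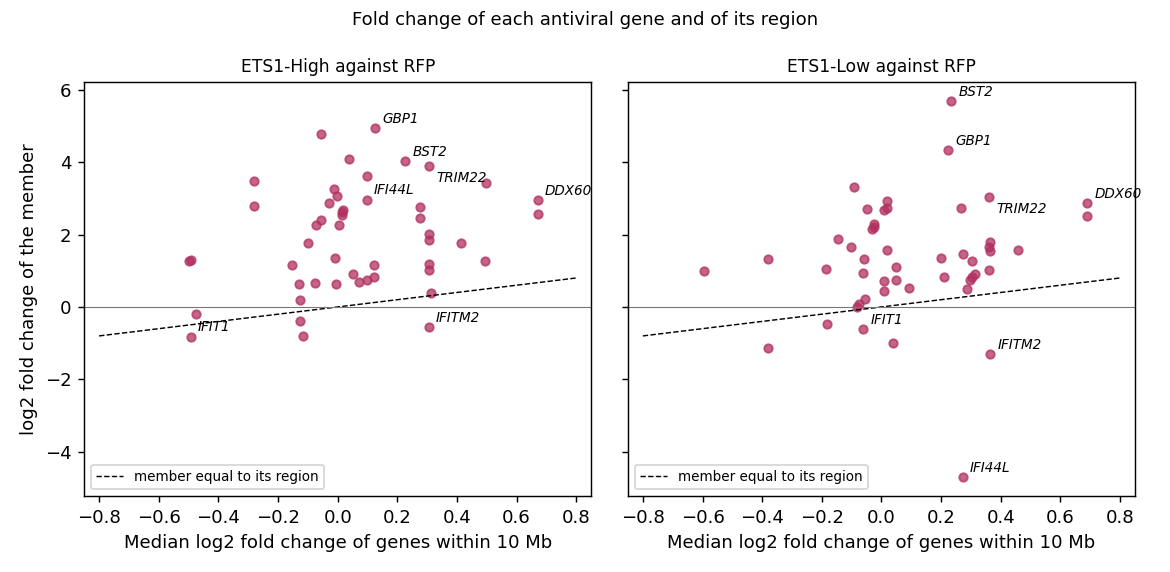
Fitted log2 fold change of each of the 49 tested members (vertical axis) against the median log2 fold change of genes within 10 Mb (horizontal axis), in ETS1-High and in ETS1-Low relative to RFP; the dashed line marks a member equal to its region. The regions lie between -0.60 and 0.69, and most members lie above the line.

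The steps upstream of these genes were described from a list of 40 sensors, interferons, receptors, signalling proteins and interferon regulatory factors, of which 27 passed the filter. The 10 interferon genes of the list did not pass. IFNB1, IFNG, IFNL1, IFNL2, IFNL3, IFNA2, IFNE, IFNK and IFNW1 had 0 counts in all 9 libraries, and IFNA1 had 1 count in RFP replicate 3. A count of 0 allows a level of up to 0.0615 to 0.0793 CPM per library, by the floor of 3 counts. In ETS1-High relative to RFP 19 of the 27 were called higher (70.4%; 37.0% of all tested genes) and 5 lower (18.5%; 37.2% of all tested genes), with a median of 0.50 on the log2 scale. In ETS1-Low they were 16 higher (59.3%; 37.9% of all tested genes) and 5 lower (36.2% of all tested genes), with a median of 0.26. Between the ETS1 groups 14 were higher (29.9% of all tested genes) and 5 lower (29.3% of all tested genes), with a median of 0.16. Rises of at least 2-fold were called for 8 in ETS1-High (9.64% of all tested genes) and 7 in ETS1-Low (8.47% of all tested genes). With the local median taken off, these were 6 and 4.

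Among sensors of viral RNA, IFIH1 (MDA5) was nearly absent from RFP. It had 0.249, 0.256 and 0.410 CPM with RFP, 16.8, 16.3 and 16.0 with ETS1-Low and 19.1, 18.8 and 18.8 with ETS1-High, a log2 fold change of 5.94 (edgeR adjusted p = 2.56e-41) in ETS1-High and 5.73 (edgeR adjusted p = 3.54e-40) in ETS1-Low. TLR3, the endosomal sensor, rose by 3.76 and 3.01, its adaptor TICAM1 by 1.22 and 1.09, and DHX58 (LGP2) by 2.75 and 3.30, in ETS1-High and ETS1-Low. IKBKE, a kinase of this pathway, fell by 0.97 and 1.01. The DNA sensor gene CGAS had at most 4 counts in a library.

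Of the receptors and their kinases, IFNLR1, a chain of the receptor for interferon lambda, had 2.27, 2.56 and 2.13 CPM with RFP, 19.8, 20.6 and 20.3 with ETS1-Low and 15.9, 15.9 and 17.4 with ETS1-High, with rises of 2.82 and 3.13 on the log2 scale. JAK1 rose by 0.93 and 1.14. Smaller rises were those of the signalling protein STAT2, by 0.82 and 0.35, and of IRF9, by 0.76 and 0.45, in ETS1-High and ETS1-Low. JAK2 was called higher in ETS1-High, by 0.28, and lower in ETS1-Low, at a log2 fold change of -0.43. The genes within 10 Mb of JAK2 had medians of -0.14 and -0.53 in that order. SOCS3 was called lower in both, at -0.22 (edgeR adjusted p = 0.0319) in ETS1-High and -0.90 (edgeR adjusted p = 1.93e-11) in ETS1-Low. 

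IRF1, a regulator that can drive such genes by itself, had 5.05, 4.91 and 5.22 CPM with RFP, 7.78, 7.47 and 6.28 with ETS1-Low and 24.1, 25.0 and 23.8 with ETS1-High. Most of its rise came between the ETS1 groups, with a step of 0.50 (edgeR adjusted p = 3.78e-07) to ETS1-Low and of 1.76 (edgeR adjusted p = 1.87e-27) from there to ETS1-High. SOCS1, the feedback inhibitor of JAK kinases, was also highest in ETS1-High, with 0.353, 0.213 and 0.348 CPM with RFP, 0.450, 0.400 and 0.317 with ETS1-Low and 1.32, 1.85 and 1.28 with ETS1-High. Its value in ETS1-Low, 0.34, did not pass the test (edgeR adjusted p = 0.356), and in ETS1-High it was higher by 2.27 (edgeR adjusted p = 1.83e-10). IRF2 rose by 1.48 and 1.29, IRF5 fell by 1.44 and 1.89, and IRF7, the regulator that amplifies interferon production, had values of -0.23 (edgeR adjusted p = 0.187) and 0.09 (edgeR adjusted p = 0.603) in ETS1-High and ETS1-Low. The genes within 10 Mb of IRF2 had medians of 0.62 and 0.59, and IRF2 minus its region was 0.87 and 0.71.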

How the data were processed

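The deposited tables hold RSEM expected counts and RSEM FPKM values per gene for 9 libraries of TC-32 cells, per the file headers. Per the submitters' processing notes, cutadapt 4.4, STAR 2.7.3, featureCounts of Subread 2.0.3 and limma 3.38.3 were used on GRCh38, with no roles given, and the annotation is not given in the sources used here. Groups come from the sample titles, and in the column names the letters L and H were taken to stand for Low and High. The expected counts deposited by the authors divide reads shared between genes, and the FPKM values deposited by the authors take account of transcript length and sequencing depth.

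Expected counts were rounded and tested with edgeR 4.0.16 (R 4.3.3; TMM, filterByExpr, glmQLFit with robust estimation) in 1 fit of all 9 libraries. The chi-square per gene between libraries of a group was 2.66 to 5.19, where sampling noise gives about 1. Each library was counted separately, although these values cannot show that the libraries came from separate cultures. Some listed genes are not reported here and were left out of the list counts. The lists and members were chosen with earlier results of these data known. Members of the OAS, IFIT, IFITM, TRIM and PARP groups were named, and from other groups those among the 3 largest fold changes of a comparison; CPM of other members are given as means or folds. Of the upstream list, genes with a called 2-fold change were named, and STAT2, IRF7, IRF9, CGAS, JAK2 and SOCS3 were added after their values were seen. Positions are from GENCODE v44, which held 99.2% of the tested genes, and promoters from RefSeq. Local medians used other genes with a mean log2 CPM above 1. Alternatives were other scalings, filters and fits, DESeq2 1.42.0, limma 3.58.1 on FPKM and leaving out each library.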

Additional observations from a re-analysis of the deposited data

Results flagged for a closer look

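Among the 49 tested antiviral genes, 4 were called against RFP in opposite directions in the 2 ETS1 groups and also differed between these groups in the edgeR quasi-likelihood test, as did 6.41% of all tested genes. IFI44L was lower than RFP in ETS1-Low and higher in ETS1-High, and the ETS1 groups differed by a fitted log2 fold change of 7.67, which depends on the prior count since ETS1-Low held only 2 counts in all (edgeR adjusted p = 4.28e-24). HERC5 showed the same order, with a difference of 3.94 (edgeR adjusted p = 1.10e-14). IFI16 was slightly higher than RFP in ETS1-Low and lower in ETS1-High, and the groups differed by -0.47 (edgeR adjusted p = 6.74e-19). IFIT5 differed by -0.41 (edgeR adjusted p = 2.93e-09), with a local median of -0.35 for its region in that comparison. The ETS1-Low calls of these genes did not hold under every alternative. That of IFI44L was lost with FPKM and no filter (-0.21, limma adjusted p = 0.0651). That of HERC5 was lost without RFP replicate 3 or ETS1-Low replicate 3 (-0.95 to -0.84, edgeR adjusted p = 0.0813 to 0.139) and in DESeq2 (adjusted p = 0.0568), that of IFI16 was lost without ETS1-Low replicate 1 (0.07, edgeR adjusted p = 0.0662) and turned negative with FPKM (-0.04, limma adjusted p = 0.278), and that of IFIT5 was lost with FPKM (0.06, limma adjusted p = 0.330).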

How the results depend on the processing

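Counts of called members stayed within 1.5 times of the values given under DESeq2 size factors, no filter on low counts, the replicate block, fits of only the groups compared and the DESeq2 Wald test. With FPKM values filtered at a mean of 1 FPKM, fewer members were tested. There 28 members were called higher and 4 lower in ETS1-High against RFP, with a pseudocount of 1 and of 0.1. Between the ETS1 groups 17 were called higher with either pseudocount. With FPKM values and no filter, 42 members were called higher and 4 lower in ETS1-High against RFP. With at least 10 counts in every library, 35 were called higher and 5 lower in that comparison. The shares of all genes called under these settings were not computed. Members called lower in ETS1-Low against RFP were 2 with at least 10 counts in every library and 2 with FPKM values and no filter, against 4. Leaving out 1 library gave 42 to 44 members higher and 4 to 5 lower in ETS1-High against RFP, 39 to 41 and 3 to 4 in ETS1-Low against RFP, and 28 to 30 and 6 to 8 between the ETS1 groups. For the upstream genes, 27 of which were tested in the main fit, the numbers called in either direction were 23 to 25, 20 to 21 and 18 to 21. These are in the same order of comparisons. In the main fit, either-direction calls took in 74.2%, 74.1% and 59.2% of all tested genes in that order. The shares of all genes called with a library left out were not computed. Values that changed direction were those of IFI16 in ETS1-Low against RFP (-0.0430, -0.0434 and -0.0430 with FPKM and pseudocounts of 1, 0.1 and 1 without a filter), of ADAR in the same comparison (-0.142 and -0.144) and of EIF2AK2 between the ETS1 groups (0.00475, 0.00502 and 0.00475). The FPKM values were not scaled by TMM. In ETS1-Low against RFP, the median log2 fold change over all genes was -0.07 and -0.08 with filtered FPKM and pseudocounts of 1 and 0.1. It was -0.01 with FPKM and no filter and 0.01 in the main fit. The part of this shift in the changes of direction was not tested. Libraries with the same replicate number did not deviate together, with correlations between -0.0295 and 0.0276 across genes. No shared replicate effect was thus seen, and whether the numbers stand for paired cultures is not stated. With the replicate number as a block, 1 call was lost, that of OAS2 between the ETS1 groups (0.53, edgeR adjusted p = 0.0573), and the numbers of members called higher were 44, 41 and 29. Depth limits the scarce members, since a floor of 3 counts is 0.0615 to 0.0793 CPM per library.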

Other observations

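Read per length, ISG20 changed more than its counts did. Its mean level went from 0.220 ± 0.0794 FPKM in RFP to 1.37 ± 0.0693 FPKM in ETS1-Low (SD, n = 3), and from 0.521 ± 0.10 to 1.34 ± 0.0803 CPM. The deposited gene tables do not give isoforms, so which transcripts of ISG20 were present was not analysed here.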
